A study of Homo sapiens with 12 samples.

Results

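Keratins are the epithelial intermediate filament proteins, and 10 of their genes were followed here: KRT7, KRT8, KRT15, KRT17, KRT18, KRT19, KRT20, KRT23, KRT80 and KRT81. They were chosen by name, as genes of simple and stratified epithelium, with earlier results of these data known. All 10 are among the 54261 gene symbols of the deposited count table. SW480 and DLD1 are established cell lines from human colorectal cancers, and RNA was sequenced from cultures of each without or with lactate. The labels give 4 groups of n = 3 libraries: SW480 without lactate, SW480 with lactate, DLD1 without lactate and DLD1 with lactate. The design text calls the libraries of a group biological replicates. The sources used here give no lactate dose or duration, and the labels name no genetic change in any group. Whether the replicates were separate cultures is not stated, so p-values measure the spread between these libraries.

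Keratin filaments are obligate heteropolymers: each needs an acidic type I and a basic type II partner, and a chain without its partner is degraded. KRT8 (type II) and KRT18 (type I) are the primary pair of simple epithelium, with KRT19 as a further type I chain. KRT20 is a type I keratin of the differentiated intestinal lining, and KRT7 is a type II keratin of ducts and glands that normal colon largely lacks. KRT15 and KRT17 belong to the basal and stress-activated cells of stratified epithelium and its appendages. KRT80 is a type II keratin of many epithelia, KRT81 a type II hair keratin, and KRT23 a divergent type I chain.

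The type II members and KRT18 lie in the keratin cluster of chromosome 12 (positions from RefSeq, GRCh38.p14). KRT80 spans chr12:52168996-52192014 on the minus strand and KRT7 spans chr12:52233243-52255853 on the plus strand. KRT81 spans chr12:52285913-52291534 on the minus strand, inside the span of the hair keratin KRT86 on the opposite strand. KRT8 (chr12:52897191-52949860, minus strand) and KRT18 (chr12:52948855-52952906, plus strand) overlap at their ends on opposite strands. Since no strand setting of the counting is given, reads in the overlaps of KRT8 with KRT18, and of KRT81 with KRT86, cannot be told apart. In GENCODE v29, KRT7 also overlaps KRT86 on the same strand and the pseudogene KRT87P on the opposite one, and KRT80 overlaps LINC00592 on the opposite strand. The other type I members lie on the minus strand of chromosome 17: KRT20 at chr17:40875889-40885242, KRT23 at chr17:40922700-40937646, KRT15 at chr17:41513745-41518890, KRT19 at chr17:41523617-41528308 and KRT17 at chr17:41619442-41624575.

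KRT81 shares more of its transcript with other genes than any other member does. Its closest relative is KRT86, and their coding sequences were compared in the reference transcripts (GENCODE v29). Over the aligned coding sequence, 1372 of 1457 bases were identical (94.2%), and the longest identical run was 605 bases. Of all 50-base windows of the KRT81 transcript, 44.6% occurred in another gene's transcript, 38.4% in KRT86. The same measure was 39.7% for KRT8 and 35.1% for KRT18, mostly through processed pseudogenes, and 17.4% for KRT17. For KRT19, KRT7, KRT15 and KRT80 it was between 0.420% and 1.79%, and for KRT20 and KRT23 it was 0. Values of KRT8, KRT17, KRT18 and KRT81 are uncertain to that extent. The 51 KRT8 pseudogenes of the table held counts equal to 1.06% to 2.44% of those of KRT8 in the group means, and the 68 KRT18 pseudogenes 0.591% to 1.27% of those of KRT18.

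KRT20 is the intestinal member and was found in DLD1 but not in SW480. Its promoter window is shown for description only. RefSeq promoter windows were matched for 2 of the 10 members, KRT8 and KRT20. The KRT20 window reaches from 250 bases before to 50 after the gene start (chr17:40885193-40885492, GRCh38.p14, minus strand). Capitals mark TTTAT, the core bound by CDX factors, and CACCC, an element bound by Krüppel-like factors, on either strand.

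KRT20: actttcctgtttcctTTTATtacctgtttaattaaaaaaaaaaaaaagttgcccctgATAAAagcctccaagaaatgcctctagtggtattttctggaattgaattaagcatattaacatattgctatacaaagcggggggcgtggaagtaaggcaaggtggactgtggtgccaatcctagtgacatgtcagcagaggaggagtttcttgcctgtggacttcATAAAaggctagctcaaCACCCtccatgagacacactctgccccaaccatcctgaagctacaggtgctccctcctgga

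The window held TTTAT 3 times and CACCC once, with no overlap between them. Of 35116 such windows, 34.9% held TTTAT and 59.9% held CACCC. The TATA box (TATAAA), the AP-1 site (TGANTCA) and the GC box (GGGCGG) were also searched, with 0 matches each. All matches are of letters only and were not tested as binding sites. CDX2, an intestinal transcription factor, stood at 138 ± 42.5 CPM (counts per 1000000 of the library's total, mean ± SD, n = 3) in untreated DLD1 and at 0.124 ± 0.149 CPM in untreated SW480. The Krüppel-like factor KLF4 went the other way, at 38.8 ± 5.66 CPM in untreated DLD1 and 80.2 ± 6.78 CPM in untreated SW480. The part of either factor in the KRT20 level was not tested.

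Total counts ran from 12302311 to 22662063 per library. The libraries labelled SW480 held colon epithelial markers near 0: the summed level of 6 markers was 1.96 to 2.83 CPM in its 6 libraries and 1475 to 1767 CPM in those of DLD1, and LGALS4 was at 0 in all 6. The opposite held for 6 fibroblast markers, at 244 to 261 CPM in SW480 and 8.64 to 11.9 CPM in DLD1. A sum of 7 squamous markers was 101 to 116 CPM in SW480 and 16.1 to 27.1 CPM in DLD1. Most of that sum was KRT10 in every group, at 107 ± 4.33 CPM in untreated SW480 and 20.2 ± 5.03 CPM in untreated DLD1. Only 2 of the 7 squamous markers had enough counts to be tested. Sums of leukocyte and endothelial markers were at most 6.92 and 4.46 CPM. In untreated DLD1, control libraries 2 and 3 stood apart from their group. Their log2 differences from the other controls correlated with the GC content of the genes in opposite directions (Spearman's rho -0.78 and 0.82 over 12035 genes, which are not independent). The epithelial adhesion genes CDH1 and EPCAM were at 1.45 ± 0.131 and 0.964 ± 0.184 CPM in untreated SW480 and at 695 ± 51.9 and 701 ± 13.8 CPM in untreated DLD1. The neurofilament gene NEFL was at 377 ± 9.91 CPM in untreated SW480 and 0.140 ± 0.0957 CPM in untreated DLD1. The libraries labelled SW480 thus lack the defining markers of the labelled tissue, and the identity of the line was not tested. All values of SW480, and all comparisons between the lines, follow the labels as given.

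KRT8 and KRT18 were the most abundant members in both lines, and DLD1 held more of both, and far more KRT19, than SW480. Per kilobase of transcript, untreated SW480 had 749.9 CPM of KRT8, 519.9 of KRT18, 69.0 of KRT19, 55.1 of KRT7, 23.8 of KRT80, 8.72 of KRT81, 1.14 of KRT15 and 0.255 of KRT17 (means of 3 libraries). The libraries of neighbours in that order did not overlap. In untreated DLD1 the means per kilobase were 1942 CPM for KRT8, 1528 for KRT18, 731 for KRT19, 17.4 for KRT80, 8.81 for KRT7, 1.25 for KRT15, 0.470 for KRT20, 0.334 for KRT81 and 0.0741 for KRT17. There KRT8 and KRT18 overlapped, as did KRT20 and KRT81. KRT80 thus ranked above KRT7 in DLD1 and below it in SW480, and KRT81 ranked above KRT15 only in SW480. In DLD1 with lactate, KRT81 at 0.970 CPM per kilobase stood above KRT20 at 0.427.

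**Figure D1:**
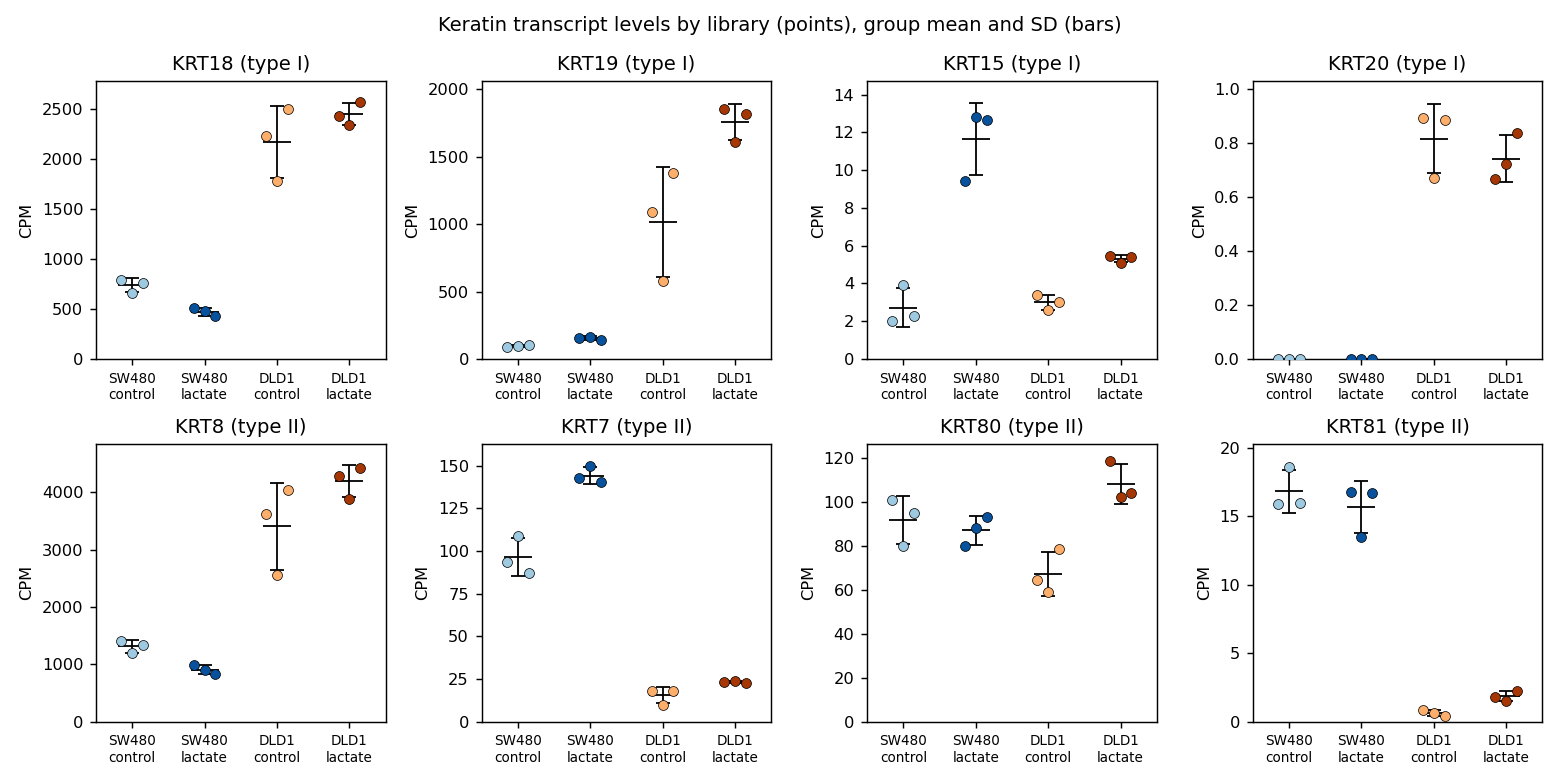
Levels of the 8 tested keratin genes (CPM, linear axes from 0 that differ between panels) in every library of SW480 and DLD1 without (control) and with lactate, as points with the group mean and SD. KRT19 stands at 91.4 to 167 CPM in SW480 and 579 to 1853 CPM in DLD1, and KRT81 and KRT7 are lower in DLD1 than in SW480.

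Between the untreated lines, 4 of the 8 tested members were higher in DLD1 and 3 were lower, where 70.8% of all 17572 tested genes were called (33.6% higher and 37.3% lower). A gene is called where the adjusted p of edgeR's quasi-likelihood test (Benjamini-Hochberg over all tested genes) is under 0.05. KRT17 and KRT23 were too low to be tested, and KRT20 passed the filter on low counts only through DLD1, where it was higher. KRT19 showed the widest gap among the members detected in both lines and higher in DLD1. Its level was 91.4, 94.1 and 102 CPM in untreated SW480 and 1088, 579 and 1381 CPM in untreated DLD1, a log2 difference of 3.34 ± 0.23 (SE; adjusted p = 5.44e-09). KRT18 (1.49 ± 0.13) and KRT8 (1.31 ± 0.14) were also higher in DLD1, with adjusted p = 5.81e-08 and 1.17e-06. In the other direction, the hair keratin KRT81 was at 15.9, 18.6 and 15.97 CPM in untreated SW480 and at 0.844, 0.670 and 0.417 CPM in untreated DLD1. Its log2 difference was -4.75 ± 0.23 (adjusted p = 7.16e-11). KRT7, the ductal keratin, was lower in DLD1 by a log2 value of -2.70 ± 0.17, and KRT80 by -0.52 ± 0.12 (adjusted p = 2.17e-09 and 0.00146). KRT15 did not pass, at 0.11 ± 0.24 (adjusted p = 0.691). The libraries of the untreated lines did not overlap for the 7 called members, 3 of them lower in DLD1, and for 70.6% of all tested genes (35.1% higher and 35.5% lower).

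KRT20 had no count in any of the 6 SW480 libraries. In DLD1 its counts were 18, 10 and 17 without lactate and 11, 14 and 19 with lactate. The controls of DLD1 were at least 12.3-fold higher than the 0.0665 CPM that a count of 0 allows over the SW480 control group (3 counts, counting error only), and the lactate libraries at least 12.2-fold higher than the limit of 0.0607 CPM. KRT20 is thus a low transcript in DLD1, at 0.816 ± 0.127 CPM without and 0.742 ± 0.0880 CPM with lactate. KRT17, the stress-activated keratin, had 9, 5 and 3 counts in untreated SW480, 8, 20 and 2 with lactate, 2 in each DLD1 control, and 5, 2 and 8 in DLD1 with lactate. KRT23 had 1 count in 1 SW480 lactate library and 0 in the other 11.

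With lactate, the primary pair fell in SW480 while less abundant chains rose. Of the 8 tested members, KRT15, KRT7 and KRT19 rose and KRT18 and KRT8 fell, where 12.4% of all tested genes were called (6.83% up and 5.59% down). The median log2 change of the 8 members was -0.03, against -0.01 over all genes. The 8 include KRT20, which had no count in SW480 and could not be called there. Libraries of the groups did not overlap for the same 5 members, where 40.8% of all tested genes had none (18.9% up and 21.9% down). In such bulk RNA, fewer cells that express a gene and less RNA per cell cannot be told apart. The summed fibroblast markers stood at 248 to 261 CPM without and 244 to 257 CPM with lactate in SW480. The squamous markers, mostly KRT10, stood at 106 to 114 and 101 to 116 CPM. Of the 6 fibroblast markers, 2 had a positive and 4 a negative log2 change in SW480. The collagen gene COL1A1 rose, from 21.1 ± 1.90 to 48.7 ± 0.429 CPM (1.23 ± 0.12, adjusted p = 6.52e-05). The more abundant COL3A1 went from 143 ± 10.3 to 127 ± 3.81 CPM and DCN from 81.2 ± 5.73 to 65.4 ± 8.82 CPM. Neither was called (adjusted p = 0.365 and 0.167), though their groups did not overlap. The part of these markers in the keratin results was not tested.

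KRT18 was at 795, 658 and 762 CPM in the SW480 controls and at 514, 477 and 433 CPM with lactate. All 3 lactate libraries lay below every control. The log2 change was -0.61 ± 0.12 (adjusted p = 0.00610), and it stayed called in all 12 fits that left out 1 library each. Its partner KRT8 was at 1409.6, 1194 and 1344 CPM without and 992, 906 and 826 CPM with lactate, again with no overlap. Its log2 change was -0.51 ± 0.14 (adjusted p = 0.0318). The KRT8 call was lost without SW480 control 1 (0.147), control 3 (0.0932), lactate 2 (0.109), lactate 3 (0.143) or DLD1 lactate 1 (0.05004).

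KRT15 had the largest change of the members in SW480. It was at 1.99, 3.90 and 2.26 CPM in the controls (31 to 48 counts) and at 9.42, 12.8 and 12.7 CPM with lactate (151 to 248 counts). The lowest lactate library was above the highest control. Its log2 change of 2.15 ± 0.23 (adjusted p = 8.14e-05) was called in all 12 fits that left out a library. KRT7 was at 93.9, 109 and 87.3 CPM without and 143, 149.7 and 140.4 CPM with lactate. Every lactate library lay above the controls, and the log2 change was 0.60 ± 0.16 (adjusted p = 0.0234). Leaving out SW480 control 1 (0.115), control 3 (0.0994) or lactate 2 (0.0899) ended the call.

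KRT19, the alternative type I partner of KRT8, was at 91.4, 94.1 and 102 CPM in the SW480 controls and at 156, 167 and 139.6 CPM with lactate. The groups did not overlap. Its log2 change was 0.71 ± 0.22 (adjusted p = 0.0436). The call held only without DLD1 control 2 or DLD1 control 3, and leaving out any of the other 10 libraries gave an adjusted p of 0.0573 to 0.173. KRT80 did not pass in SW480, at 100.9, 79.7 and 94.9 CPM without and 79.97, 87.9 and 93.0 CPM with lactate (-0.06 ± 0.12, adjusted p = 0.811). KRT81 did not pass either, at 15.9, 18.6 and 15.97 CPM without and 16.8, 13.5 and 16.7 CPM with lactate (-0.08 ± 0.16, adjusted p = 0.803). Libraries of the groups overlapped for both.

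In DLD1, the members called with lactate were KRT80 and the hair keratin KRT81, both higher. This was 2 of the 8 tested members, where 0.381% of all tested genes were called (0.336% up and 0.0455% down). The median log2 change of the 8 was 0.61, against 0.02 over all genes. KRT80 was at 64.3, 58.9 and 78.4 CPM in the controls and at 118, 102 and 104 CPM with lactate, a log2 change of 0.66 ± 0.12 (adjusted p = 0.0298). Each lactate library was above each control. The call held in 4 of the 12 fits that left out a library (those without SW480 control 1 or 2 or DLD1 control 2 or 3), and the others gave 0.0542 to 0.217.

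KRT81 rose in DLD1 from a low base. Its counts were 17, 10 and 8 in the controls and 30, 30 and 51 with lactate, or 0.844, 0.670 and 0.417 against 1.82, 1.55 and 2.25 CPM. The groups did not overlap, and the log2 change was 1.51 ± 0.27 (adjusted p = 0.0289). The call was lost in 6 of 12 fits, those without SW480 lactate 1 or 3, DLD1 control 1 or any DLD1 lactate library (0.0503 to 0.146). KRT86, named after its values were seen because it shares sequence with KRT81, had a log2 change of 1.14 ± 0.25 in DLD1 and 0.61 ± 0.21 in SW480 (adjusted p = 0.0688 and 0.0751). Its groups did not overlap in either line. In DLD1 it was above KRT81, at 1.27 ± 0.408 CPM without and 2.80 ± 0.180 CPM with lactate. The summed squamous markers, mostly KRT10 and without KRT81 and KRT80, were at 16.1 to 27.1 CPM without and 21.4 to 26.0 CPM with lactate in DLD1. The groups did not overlap for the sum of 4 endothelial markers (1.74 to 2.60 CPM without and 4.12 to 4.46 CPM with lactate). Only 1 of these 4 had enough counts to be tested. Nor did they for the sum of the 6 colon epithelial markers (1475 to 1600 and 1640 to 1767 CPM). Of 5 colon markers tested, 4 had a positive log2 change and 1, EPCAM, a negative one. EPCAM went from 701 ± 13.8 to 671 ± 14.6 CPM without overlap and was not called (-0.09 ± 0.10, adjusted p = 0.660). The part of these markers in the keratin results was not tested.

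The other members were measured in DLD1 without passing the test and are given as values. KRT19 was at 1088, 579 and 1381 CPM without and 1853, 1605 and 1814 CPM with lactate (0.77 ± 0.21, adjusted p = 0.131). KRT15 was at 3.37, 2.61 and 3.02 CPM without and 5.45, 5.11 and 5.38 CPM with lactate (0.79 ± 0.22, adjusted p = 0.133). KRT7 was at 18.0, 10.05 and 18.3 CPM without and 23.2, 23.7 and 22.6 CPM with lactate (0.55 ± 0.17, adjusted p = 0.150). In these 3 genes the groups did not overlap, as in KRT80 and KRT81. That is 5 of 8 members higher with no overlap, where 10.7% of all tested genes were (and 8.06% lower). For the primary pair the groups overlapped. KRT8 was at 3619, 2563 and 4041 CPM without and 4288, 3887 and 4426 CPM with lactate (0.28 ± 0.14, adjusted p = 0.304). KRT18 was at 2231, 1781 and 2499 CPM without and 2435, 2346 and 2568 CPM with lactate (0.15 ± 0.12, adjusted p = 0.509). KRT20 stood at -0.16 ± 0.37 (adjusted p = 0.844).

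The lactate change in DLD1 moved with GC content, and the keratin transcripts are GC-rich. Across 12035 genes the log2 change correlated with GC content at a Spearman's rho of 0.69 in DLD1 and 0.04 in SW480. Genes of 60% to 65% GC had a median log2 change of 0.25 in DLD1 and 0.04 in SW480. KRT7, KRT8, KRT17, KRT19 and KRT81 lie in that range (60.3% to 62.9%), KRT15, KRT18 and KRT80 between 56.8% and 58.5%, KRT23 at 50.3% and KRT20 at 45.7%. With the trend on GC content and length removed, the DLD1 changes were 0.44 for KRT80 (adjusted p = 0.00954), 1.26 for KRT81 (0.0267) and 0.56 for KRT19 (0.00111, called), while KRT15 was at 0.59, KRT7 at 0.30, KRT8 at 0.04 and KRT18 at -0.06. Without DLD1 control 2 alone, KRT7 stood at 0.33, KRT8 at 0.12 and KRT18 at 0.03, and KRT19, KRT80 and KRT81 were called. Without DLD1 control 3 alone, KRT7 stood at 0.67, KRT8 at 0.41 and KRT18 at 0.26. In that fit 6 members were called: KRT7, KRT8, KRT15, KRT19, KRT80 and KRT81. Without DLD1 controls 2 and 3, a choice made after the data were seen, KRT80 (0.72, adjusted p = 0.00585) and KRT19 (0.66, adjusted p = 0.00959) were called and KRT81 was not (1.12, adjusted p = 0.0789).

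**Figure D2:**
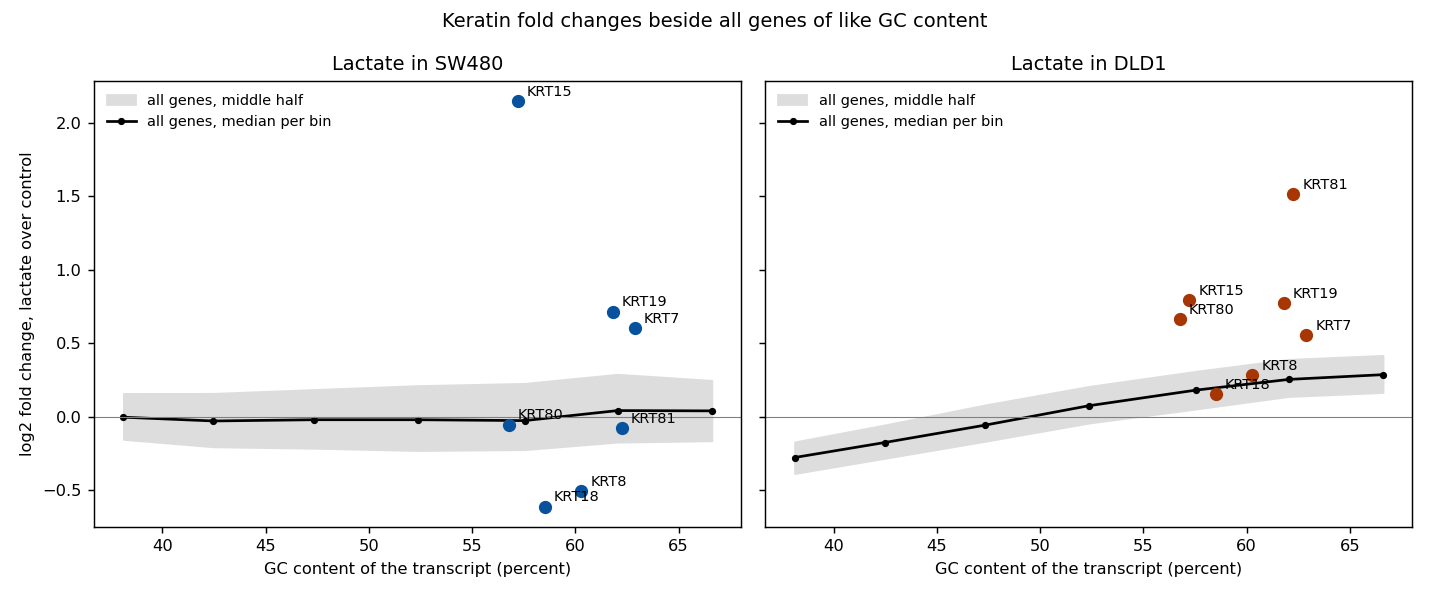
GC content of the transcript (x, percent) against the log2 change with lactate (y) in each line, for 7 keratin members (points), with the median (line) and middle 50% (band) of all genes per GC bin. In DLD1 the medians rise from -0.28 under 40% GC to 0.29 over 65%, and in SW480 they stay between -0.03 and 0.04.

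The primary pair fell in SW480 and did not pass the test in DLD1, where its log2 values were above 0 (KRT18 at -0.06 with the GC trend removed). KRT81 was the only member of 8 whose difference between the lines passed the test (0.728% of all tested genes did, 0.324% with the higher change in DLD1 and 0.404% with the lower). The 8 include KRT20, whose difference could not be assessed because it had no count in SW480. The log2 change of KRT81 in DLD1 minus that in SW480 was 1.59 ± 0.32 (adjusted p = 0.0339), and 8 of the 12 fits without 1 library lost it (0.0535 to 0.128). For KRT18 the difference was 0.77 ± 0.18 and for KRT8 0.79 ± 0.20 (adjusted p = 0.0609 and 0.0811). KRT80 differed by 0.72 ± 0.17 and KRT15 by -1.35 ± 0.32 (adjusted p = 0.0668 and 0.0666). DESeq2, edgeR without the filter on low counts, and edgeR with the GC trend removed each called all 5 of these genes. KRT19 and KRT7 differed by 0.06 ± 0.30 and -0.05 ± 0.23 (adjusted p = 0.957 and 0.948). Both log2 changes were positive in each line.

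**Figure D3:**
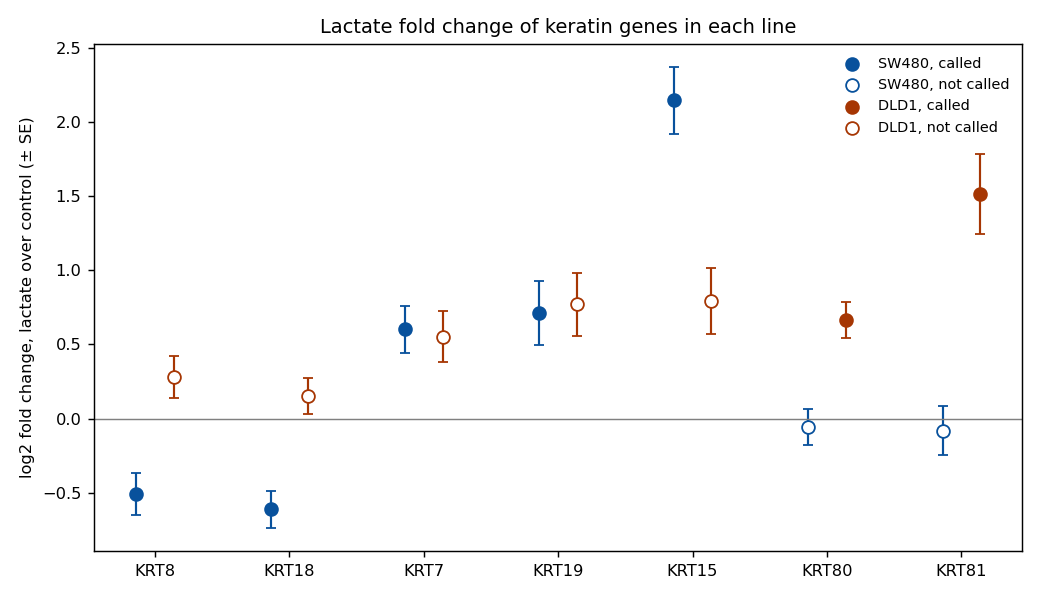
Log2 change with lactate for the tested keratin members other than KRT20 in SW480 and in DLD1, with its standard error. Filled points are called and open points are not. Of the genes drawn, KRT15 (2.15) has the largest change in SW480 and KRT81 (1.51) in DLD1. KRT8 (-0.51) and KRT18 (-0.61) are called in SW480 only (the DLD1 value of KRT18, 0.15, turns to -0.06 with the GC trend removed).

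Within a library, KRT19 made up more of the type I message, and KRT18 less, with lactate than without, in both lines. The share of KRT19 among the 6 type I members, per kilobase, was 10.5%, 12.7% and 12.01% in the SW480 controls and 23.5%, 26.0% and 24.5% with lactate. In DLD1 it was 33.2%, 24.9% and 36.1% without and 43.7%, 41.1% and 41.9% with lactate. The groups of neither line overlapped, and in DLD1 the lowest and the highest control were the libraries 2 and 3 that stood apart. The share of KRT18 was 88.0 ± 1.21% and 74.2 ± 1.46% in SW480, and 68.5 ± 5.79% and 57.7 ± 1.33% in DLD1. KRT18 and KRT19 made up nearly all of the type I message, so the lower share of KRT18 restates the higher share of KRT19. Among type II members, KRT7 made up 6.63 ± 1.21% and 13.1 ± 0.924% in SW480, and 0.442 ± 0.0527% and 0.544 ± 0.0487% in DLD1. Such shares compare genes of the same library, so they do not depend on library scaling.

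The ratio of KRT8 to KRT18 per kilobase was 1.44 ± 0.0226 without and 1.55 ± 0.0121 with lactate in SW480, and 1.26 ± 0.0845 and 1.39 ± 0.0424 in DLD1. Every lactate library had a higher ratio than any control of its line. All type II over all type I members gave 1.42 ± 0.0311 and 1.40 ± 0.0282 in SW480, which overlapped, and 0.873 ± 0.0228 and 0.814 ± 0.00981 in DLD1. The 10 genes together held 2359 ± 181 CPM without and 1796 ± 127 CPM with lactate in SW480. In DLD1 they held 6681 ± 1542 and 8547 ± 511 CPM, and those groups overlapped. These measures and that of KRT8 among type II members were compared in both lines by exact two-sided permutation tests. In 12 of the 14 the groups did not overlap (exact p = 0.1, the smallest that 3 against 3 allows, adjusted p = 0.117). The ratio of type II to type I in SW480 (exact p = 0.4, adjusted p = 0.4) and the sum in DLD1 (exact p = 0.2, adjusted p = 0.215) were the exceptions. The 14 are not separate results, since shares of the same total depend on each other.

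**Figure D4:**
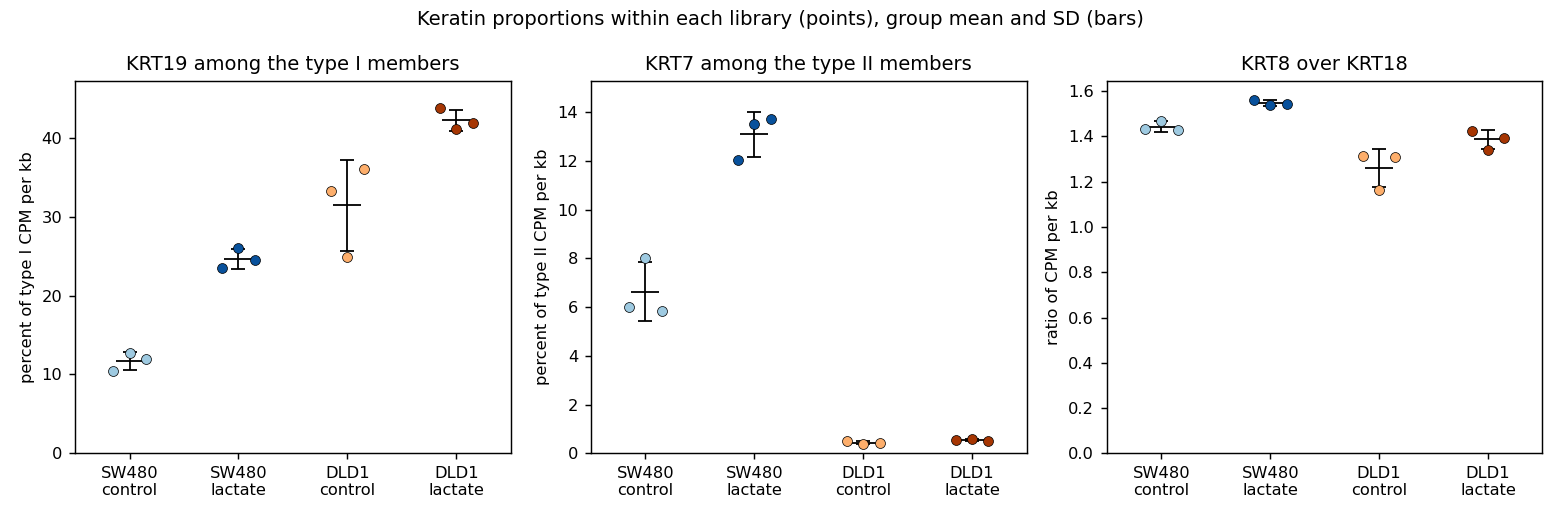
Share of KRT19 among type I members and of KRT7 among type II members (percent of CPM per kilobase), and the ratio of KRT8 to KRT18, in each library (points) with group mean and SD (bars). KRT19 takes 10.5% to 12.7% in SW480 controls and 23.5% to 26.0% with lactate, and 24.9% to 36.1% and 41.1% to 43.7% in DLD1.

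Some members moved together over the libraries, with the lactate change included. After each line's mean was removed, log2 CPM of KRT8 and KRT18 had a Pearson r of 0.96 over the 12 libraries, and that of KRT7 and KRT19 one of 0.95. KRT15 had an r of 0.80 with KRT7, 0.71 with KRT19 and -0.72 with KRT18, and KRT80 had 0.70 with KRT81. KRT18 and KRT19, both partners of KRT8, had -0.06. These values describe 12 libraries that share lines, treatment and depth. By the same measure the genes most like KRT15 were SAT1 (0.99), NDRG1 (0.98) and DENND3 (0.98). Those most like KRT19 were DHRS3 (0.99), PITPNM3 (0.98) and SOX13 (0.98), and those most like KRT7 were PBXIP1, GADD45B and DDIT4 (0.97 each). For KRT18 they were MEPCE, SLC25A10 and HEXIM1 (0.98 each), and for KRT8 AKT1 (0.98), SYNGR2 (0.97) and TRMT61A (0.97). For KRT80 they were TOM1L2 (0.94), FGD2 (0.93) and EPB41L1 (0.92). KRT81 was most like another keratin, KRT6A (0.96), followed by ISX (0.93) and TMPRSS15 (0.91).

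Of 45 other keratin genes, 9 were tested, and KRT6A was called with lactate, in DLD1, where 0.381% of all tested genes were. This keratin of activated squamous epithelium rose in DLD1 by a log2 value of 3.11 ± 0.55 (adjusted p = 0.0289), from 4 counts in the controls together to 41 with lactate. The call was lost without DLD1 control 1 (0.0714) or lactate 1 (0.151), 2 (0.0772) or 3 (0.0888). In SW480 KRT6A was abundant, at 68.4 ± 2.26 CPM without and 57.1 ± 9.97 CPM with lactate. Like KRT81, it was higher in untreated SW480 than in untreated DLD1. In SW480, where 12.4% of all tested genes were called, edgeR called 0 of the 9, with 2 at an unadjusted p under 0.05. DESeq2 called 1, KRT86.

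Among 16 tested genes that link keratins to the desmosome or other filaments, 3 rose in SW480 and 1 in DLD1, with 0 lower in either. Over all tested genes the shares called up were 6.83% and 0.336%. Desmoplakin (DSP), which anchors keratin filaments at the desmosome, rose in SW480 from 77.5 ± 5.47 to 117 ± 9.34 CPM (0.62 ± 0.12, adjusted p = 0.00488). Plakoglobin (JUP) rose by 0.87 ± 0.20 (adjusted p = 0.0107, 0.0740 without SW480 control 1). The cytolinker plectin (PLEC) rose by 0.74 ± 0.18 (adjusted p = 0.0164), a call lost without SW480 control 1 (0.0915), control 2 (0.0575) or lactate 2 (0.0731). Periplakin (PPL) rose in DLD1 by 0.69 ± 0.14 (adjusted p = 0.0435), a call that held only without DLD1 control 2 or 3 (0.0564 to 0.273 in the other fits). The list's median log2 change was 0.16 in SW480 and 0.20 in DLD1. Of the 16, 12 were higher and 2 lower in untreated DLD1 than in untreated SW480, where 33.6% and 37.3% of all tested genes were. PPL was higher there by 4.62 and PKP4 by 1.96 on the log2 scale.

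Among 15 tested epithelial transcription factors, 5 rose and 1 fell in SW480, where 6.83% of all tested genes rose and 5.59% fell. The median log2 change of the 15 was 0.87, against -0.01 over all genes. KLF4 rose by 0.87 ± 0.12, ELF3 by 1.16 ± 0.17 and PRDM1 by 0.97 ± 0.15, and EHF fell by 0.75 ± 0.14 on the log2 scale (adjusted p = 5.40e-04, 7.59e-04, 0.00106 and 0.00378). ELF3 remained low in SW480, at 3.96 ± 0.0960 and 8.63 ± 1.42 CPM, against 278 ± 47.7 CPM in untreated DLD1. In DLD1, where 0.381% of all tested genes were called, edgeR called 0 of the 15, with 4 at an unadjusted p under 0.05. DESeq2 called 2. Of 6 tested genes of squamous differentiation, edgeR called 0 in either line (of all tested genes, 12.4% in SW480 and 0.381% in DLD1). Of these 6, 2 had an unadjusted p under 0.05 in SW480 and 0 in DLD1, and DESeq2 called 0. Of 7 tested enterocyte and goblet genes, 6 were higher in untreated DLD1, where 33.6% of all tested genes were, HNF4A by 7.19 and CDX2 by 9.88 on the log2 scale. HNF4A (10 counts in the SW480 controls, 15 with lactate) and CDX2 (6 and 3) passed the filter on low counts only through DLD1. Their direction was thus fixed by the filter, and no conclusion is drawn from the count of 6. With lactate edgeR called 1 of these 7 in DLD1, CEACAM5 (1.82, adjusted p = 0.0467, named after its value was seen), and 0 in SW480, where 1 had an unadjusted p under 0.05. The CEACAM5 call held only without DLD1 control 2 or 3 (0.0576 to 0.246 in the other fits). DESeq2 called 0 of the 7 in either line.

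Among 12 tested filament genes of other cell types and of the nucleus, 8 were lower and 3 higher in untreated DLD1, where 37.3% and 33.6% of all tested genes were. NEFL (8 counts in the DLD1 controls, 5 with lactate) and NEFM (2 and 2) passed the filter on low counts only through SW480. Their direction was thus fixed by the filter, and no conclusion is drawn from the count of 8. Vimentin (VIM), the filament of mesenchymal cells, was at 1499 ± 80.5 CPM in untreated SW480 and 1.75 ± 1.08 CPM in untreated DLD1. With lactate in SW480 the neurofilament gene NEFM rose by 0.87 ± 0.21 and the lamin gene LMNB1 fell by 0.50 ± 0.10 on the log2 scale (adjusted p = 0.0156 and 0.00563). The NEFM call was lost without SW480 control 1 (0.0891), control 3 (0.0639) or lactate 2 (0.0847). In DLD1, where 0.381% of all tested genes were called, edgeR called 0 of the 12, with 2 at an unadjusted p under 0.05. DESeq2 called 0.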

How the data were processed

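The deposited file holds raw counts: whole numbers of reads for each gene symbol in each of 12 libraries, not normalized by the authors. Alignment used HISAT2 and the GRCh38 build, as listed in the submitters' processing notes. The version of HISAT2, the annotation, the strand setting and the tool that counted reads stand as not given in the sources used here. Each of the 12 columns carried the title of 1 library. RefSeq held 45971 of the symbols under their current name and 1854 under an older one, and 6436 did not match.

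The analysis ran in R 4.3.3 and edgeR 4.0.16: filterByExpr by group (17572 genes kept), TMM scaling, and 1 robust quasi-likelihood model with a mean per group over all 12 libraries. Tests were two-sided. SE is the size of the log2 change divided by the root of its F statistic. CPM is the count over the library total, and values per kilobase use the shortest principal coding transcript of GENCODE v29. The code was tested on simulated data. Alternatives included DESeq2 1.42.0. No library pair agreed within sampling noise.

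Named are all members, up to 4 genes of each other list called with lactate and 2 called between lines (at least 5 CPM in a group), other keratins called with lactate, and the 3 genes most like each member called with lactate. Members and lists were chosen with earlier results of these data known. A stretch of coding sequence is not reported here.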

Additional observations from a re-analysis of the deposited data

Results flagged for a closer look

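The response of KRT81 to lactate differed between the lines by a test of the difference itself. Its log2 change in DLD1 minus that in SW480 was 1.59 ± 0.32 (SE, edgeR's quasi-likelihood test, adjusted p = 0.0339). The call was lost in 8 of the 12 fits that left out 1 library (0.0535 to 0.128), with the replicate block (0.0647) and without DLD1 controls 2 and 3 (0.0830). All 3 DLD1 libraries with lactate lay above the 3 controls, while the SW480 libraries overlapped. KRT81 had only 8 to 17 counts per DLD1 control, and 38.4% of its 50-base windows also occur in KRT86. In DLD1, KRT86 held more counts than KRT81: 67 against 35 in the controls together and 165 against 111 with lactate. In SW480 it held fewer: 210 against 752 without and 343 against 765 with lactate. The part that reads of KRT86 have in the KRT81 difference was not tested.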

How the results depend on the processing

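The SW480 calls of 5 members held under every alternative setting with all libraries kept, and leaving out 1 library gave 2 to 5. KRT15 and KRT18 were called in all 12 of those fits. For all genes in SW480 (2183 called), the line fitted alone gave 4783, removal of the GC and length trend 4943, leaving out DLD1 controls 2 and 3 together (added after seeing the data) 4722, and leaving out 1 library 689 to 4347. DLD1 was far less stable. Its 67 called genes (59 up, 8 down) became 855 without the low-count filter, 684 with DESeq2 (339 up, 345 down), 498 with the GC trend removed (294 up, 204 down), 589 without controls 2 and 3 (330 up, 259 down), 1 with the line fitted alone and 3 to 3791 when 1 library was left out. The 2 called DLD1 members became 5 without the filter (KRT7, KRT15 and KRT19 added), 5 with DESeq2, 3 with the GC trend removed, and 0 to 6 with 1 library left out. With DLD1 fitted alone edgeR called 0, with 5 at an unadjusted p under 0.05. For the difference between the lines, 128 genes became 837 without the filter, 719 with DESeq2, 1348 with the GC trend removed, 627 without controls 2 and 3 and 9 to 1508 with 1 library left out. The count of called members, 1 (KRT81), became 5, 5, 5 and 4 under the same settings. KRT81 was among the called in the 5 of each but not in the 4 without controls 2 and 3 (adjusted p = 0.0830). The count was 0 to 5 with 1 library left out. The comparison of untreated lines called 7 or 8 members in the 12 fits.

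Whether replicate numbers pair the samples was not settled. Same-numbered libraries had correlations of deviations of 0.07, 0.07 and 0.14 in SW480 and -0.17, 0.19 and 0.27 in DLD1. Those of different-numbered libraries ran from -0.17 to 0.09 in SW480 and from -0.28 to 0.09 in DLD1. Not every library correlated best with its own number, and the main model used no block. With the replicate block, 34 genes and 1 member (KRT80) were called in DLD1. In the difference 0 members were called by edgeR with the block, where 5 had an unadjusted p under 0.05. KRT81 then had an adjusted p of 0.0636 in DLD1 and 0.0647 in the difference.

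Signs reversed in 14 cases, all of changes that were not called. With the GC trend removed, KRT18 in DLD1 was at -0.059, the KRT19 difference at -0.14 and KRT15 between lines at -0.0058. Without DLD1 controls 2 and 3 the KRT19 difference was -0.054. With 1 library left out, KRT80 in SW480 ran from -0.15 to 0.018, KRT81 in SW480 from -0.12 to 0.024, the KRT7 difference from -0.27 to 0.079, the KRT19 difference from -0.22 to 0.33 and KRT15 between lines from -0.066 to 0.44. Adding pseudogene reads to KRT8 and KRT18 changed no call of a member and moved the KRT8 to KRT18 ratio in SW480 with lactate to 1.57. The cause of these changes was not tested. Depth limits KRT17, KRT20, KRT23 and, in DLD1, KRT81.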
